A study of Homo sapiens with 6 samples.

Results

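SLC7A11, SLC3A2, GCLC, GCLM, GPX4, GSR, TXNRD1, SRXN1, NQO1 and HMOX1 are 10 human genes of cystine import, glutathione metabolism and the NRF2 antioxidant response. They were taken by gene symbol from a table of gene expression in which 36932 rows carried a symbol of their own, and each of the 10 matched 1 row. The set was put together with earlier results of the same libraries known, above all the higher level of SLC7A11 and the lower level of HMOX1 after knockdown of DDX18. The differences of the 10 genes between knockdown and control are therefore given as a description with no test. The difference between the knockdown colonies was not used to choose the genes, and it is tested.

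The cells were MDA-MB-231, an established triple negative breast cancer line, and the study asked how the transcriptome differs once the nucleolar DEAD-box helicase DDX18 is knocked down. Poly(A) RNA was sequenced from 6 libraries in 3 groups of 2. The groups are control MDA-MB-231 cells, colony 1 with DDX18 knockdown and colony 2 with DDX18 knockdown. The agent used for the knockdown, the treatment of the control cells, the time of harvest and whether a colony is a single clone are details not given in the sources used here. Since no label calls the 2 replicates of a group separate cultures, the p-values rest on the differences between libraries alone, and these could be technical. The sequenced RNA came from whole cultures, in which fewer cells of a kind and less RNA per cell cannot be told apart.

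Levels are in CPM, read counts per gene scaled to the size of each library. The smallest step of each column implied 8843847 to 11902437 reads per library over all rows of the table. DDX18 stood at 78.8 and 91.7 CPM in control, at 17.6 and 14.0 CPM in colony 1 and at 14.7 and 15.1 CPM in colony 2, which left 18.6% and 17.5% of the control mean in the colonies. The 6 mesenchymal markers of this line summed to 5438 to 5464 CPM in control. Their sum was 5928 to 5970 CPM in colony 1 and 6045 to 6123 CPM in colony 2. Of these, VIM, the mesenchymal intermediate filament gene typical of this line, lay between 1739 and 1803 CPM. EGFR and CD44 were higher in all knockdown libraries than in both controls. ESR1, the oestrogen receptor gene, did not exceed 0.201 CPM and PGR, the progesterone receptor gene, was at 0 CPM in every library, while ERBB2, which encodes HER2, lay between 102 and 134 CPM. The 6 leukocyte markers summed to 5.95 to 9.13 CPM over the 6 libraries, mostly from CD14 at 4.10 to 7.25 CPM. PTPRC did not exceed 0.801 CPM in any library. The 6 luminal epithelial markers summed to 1625 to 1704 CPM in control, 1096 to 1139 CPM in colony 1 and 1002 to 1064 CPM in colony 2, mostly from KRT8 and KRT19, with FOXA1 at no more than 0.306 CPM. The 3 endothelial markers in the table summed to 2.50 to 2.96 CPM in control and 6.84 to 8.76 CPM in the knockdown libraries, mostly from KDR, with CDH5 at no more than 0.20 CPM. The 5 markers of the kidney line HEK293 summed to 15.1 to 17.5 CPM in control and 21.3 to 31.5 CPM in the knockdown libraries, with SALL1, HOXA5 and NEFM at 0 CPM. These sums, except that of the leukocyte markers, move with the groups of every comparison with control below. Their part in the results was not tested.

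Cells take up cystine, the oxidised dimer of cysteine, in exchange for glutamate through the antiporter known as system xc-. Cystine is reduced inside the cell to cysteine, which limits the synthesis of glutathione, and glutathione is the reductant with which peroxides are removed. NRF2 is a transcription factor that KEAP1 holds back by ubiquitination. Electrophiles and oxidants release it, and it then binds antioxidant response elements together with small MAF proteins at genes such as GCLM, TXNRD1, NQO1 and HMOX1. BACH1 competes for these elements, and HMOX1 is the classic gene that it represses. SLC7A11 is a target both of NRF2 and of ATF4, the transcription factor of the amino acid response.

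The promoter windows below are shown because they carry the core of the antioxidant response element, TGACNNNGC, in the 250 bases before an annotated start. The sequences are from RefSeq on GRCh38.p14, and 7 of the 10 genes were matched to its promoter table. SLC7A11 and HMOX1 had no entry. GSR was not searched, since promoters on its chromosome were left out of the matching. Each line gives the 120 bases directly before a start, on the gene's strand, with the match to the core, on either strand, in capitals.
GCLM, chr1:93909431-93909550, minus strand: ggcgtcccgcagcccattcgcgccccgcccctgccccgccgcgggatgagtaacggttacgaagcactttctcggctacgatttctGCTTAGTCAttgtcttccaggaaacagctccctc
SLC3A2, chr11:62881579-62881698, plus strand: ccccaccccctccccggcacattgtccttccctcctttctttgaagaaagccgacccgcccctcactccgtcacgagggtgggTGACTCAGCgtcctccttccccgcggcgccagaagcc
TXNRD1, chr12:104215659-104215778, plus strand: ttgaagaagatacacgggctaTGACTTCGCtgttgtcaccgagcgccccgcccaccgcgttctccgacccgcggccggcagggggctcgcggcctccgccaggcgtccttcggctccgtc
TXNRD1, chr12:104286912-104287031, plus strand: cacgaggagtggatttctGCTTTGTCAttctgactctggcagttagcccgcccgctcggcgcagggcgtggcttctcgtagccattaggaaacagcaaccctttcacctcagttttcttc

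The core occurred in 10.9% of the 35116 promoters of the table when both strands were searched. Among the matched genes it was found in the window of GCLM, in 1 of the 3 windows of SLC3A2 and in both windows of TXNRD1. The match of SLC3A2 overlaps an AP-1 site, TGANTCA, whose letters were found in 6.57% of all promoters. No match was present in the windows of GCLC, GPX4, SRXN1 and NQO1, which says only that these letters are not in those windows. The core of the amino acid response element, TGATGNAA, occurred in 3.14% of all promoters and in none of the matched genes. These matches are a description of letters and no evidence that a factor bound. The 3 genes with a match did not share a direction, since the level of GCLM was higher in both colonies, that of SLC3A2 was lower and the libraries of TXNRD1 overlapped.

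The import subunit had the largest difference of the 10 genes from control. SLC7A11, the light chain of system xc- that carries cystine across the membrane, lies on chr4:138164097-138242349 on the minus strand of GRCh38. Its level was 15.8 and 16.0 CPM in control, 60.5 and 59.8 CPM in colony 1 and 68.4 and 65.0 CPM in colony 2. All 4 knockdown libraries lay far above both controls, and both libraries of colony 2 lay above both of colony 1. The mean was 3.78-fold the control mean in colony 1 and 4.19-fold in colony 2. On the log2(CPM + 1) scale, on which adding 1 CPM understates the change of weakly expressed genes, the change over both colonies was 1.93 (SE 0.09, 2 libraries in each of the 3 groups). That was the 3rd largest of the 13675 genes tested, a description since SLC7A11 was chosen for it. The difference of colony 2 from colony 1 was 0.15 (SE 0.10) on the log2 scale and did not pass the limma test (Benjamini-Hochberg adjusted p = 0.570).

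The exons of SLC7A11 overlap those of the antisense gene SLC7A11-AS1 over 865 nt, 8.97% of its 9645 nt of exonic sequence. Whether reads were assigned by strand is not given in the sources used here, so reads from the overlap could have been counted for either gene. SLC7A11-AS1 was at 2.55 and 2.00 CPM in control, 6.13 and 5.86 CPM in colony 1 and 9.21 and 9.40 CPM in colony 2. The level of SLC7A11 was 7.10 ± 1.27 times that of the antisense gene in control, 10.04 ± 0.239 times in colony 1 and 7.17 ± 0.372 times in colony 2 (SD, n = 2 libraries each). The level of the antisense gene was higher in all 4 knockdown libraries than in both controls, and higher in both libraries of colony 2 than in both of colony 1. Its difference of colony 2 from colony 1 was 0.56 (SE 0.21) on the log2 scale. That did not pass the limma test (Benjamini-Hochberg adjusted p = 0.186).

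SLC3A2 encodes the heavy chain CD98, which brings SLC7A11 and several other light chains to the cell surface, and it lies on chr11:62856102-62888875 on the plus strand. Its level was 230 and 248 CPM in control, 180 and 202 CPM in colony 1 and 155 and 173 CPM in colony 2. All 4 knockdown libraries lay below both controls, and those of colony 2 lay below those of colony 1. The means of the colonies were 0.800-fold and 0.685-fold the control mean, and the log2 change over both was -0.43 (SE 0.07). Colony 2 differed from colony 1 by -0.22 (SE 0.08) on the log2 scale, which did not pass the limma test (Benjamini-Hochberg adjusted p = 0.142) but passed it with the replicate number as a block (adjusted p = 0.00427).

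The subunits of the antiporter thus differed from control in opposite directions. The level of SLC7A11 was 0.0667 ± 0.00289 times that of SLC3A2 in control, 0.316 ± 0.0280 times in colony 1 and 0.409 ± 0.0462 times in colony 2 (ratio of CPM, SD, n = 2 libraries each). The ratio was 4.73-fold and 6.13-fold its control mean in the colonies, and the ranges of the 3 groups did not overlap. Per kilobase of exonic length, SLC3A2 was the more abundant transcript in each group, at 46.2 CPM per kb against 1.65 in control and at 31.6 against 6.92 in colony 2.

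**Figure D1:**
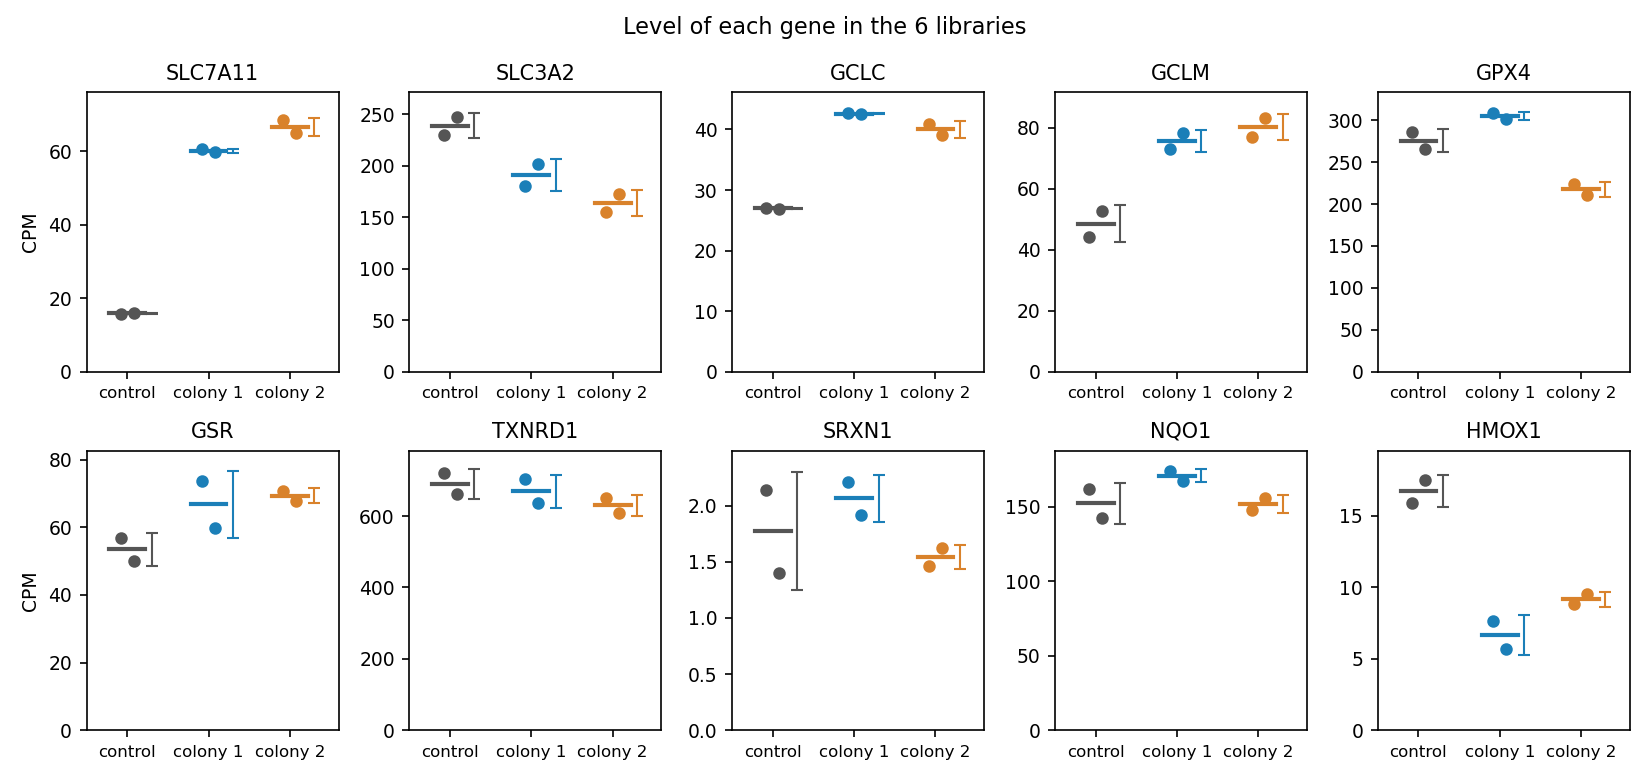
Level of each of the 10 genes in CPM (vertical axes, from 0) in the 2 libraries of control, colony 1 and colony 2. Points are libraries, horizontal lines are group means and whiskers are the SD. SLC7A11 is at 15.8 to 16.0 CPM in control and 59.8 to 68.4 CPM in the knockdown libraries, while HMOX1 is at 15.9 to 17.5 CPM in control and 5.66 to 9.51 CPM in the knockdown libraries.

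Glutathione synthesis begins with glutamate-cysteine ligase, which joins glutamate to cysteine, and both of its subunits were higher in the knockdown libraries. GCLC, the catalytic subunit on chr6:53497341-53616970, was at 27.1 and 26.9 CPM in control, 42.7 and 42.5 CPM in colony 1 and 41.0 and 39.0 CPM in colony 2. GCLM, the modifier subunit that raises the enzyme's affinity for glutamate, lies on chr1:93885205-93909456 and was at 44.3 and 52.8 CPM in control, 73.0 and 78.2 CPM in colony 1 and 77.2 and 83.2 CPM in colony 2. For both genes all 4 knockdown libraries lay above both controls. The means of GCLC were 1.58-fold and 1.48-fold the control mean in colonies 1 and 2, and those of GCLM were 1.56-fold and 1.65-fold. The log2 changes over both colonies were 0.60 (SE 0.09) for GCLC and 0.67 (SE 0.08) for GCLM, against 1.93 for SLC7A11.

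The ratio of the ligase subunits lay closer to its control value than that of the antiporter subunits. The level of GCLC was 0.560 ± 0.0715 times that of GCLM in control, 0.565 ± 0.0293 times in colony 1 and 0.50 ± 0.0441 times in colony 2, and the libraries overlapped. Relative to GCLM, SLC7A11 was at 0.330 in control, 0.797 in colony 1 and 0.834 in colony 2, so the import subunit was 2.41-fold and 2.53-fold higher relative to this synthesis subunit. Neither ligase subunit differed between the colonies by the limma test, with log2 differences of -0.09 for GCLC and 0.08 for GCLM (Benjamini-Hochberg adjusted p = 0.786 and 0.771).

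GPX4 is the selenoenzyme that uses glutathione to reduce lipid hydroperoxides in membranes, the step whose loss leads to ferroptosis. It lies on chr19:1103926-1106791 on the plus strand and was, per kilobase of exonic length, the most abundant of the 10 transcripts in all 3 groups. Its level was 285 and 266 CPM in control, 308 and 301 CPM in colony 1 and 224 and 211 CPM in colony 2. Both libraries of colony 1 lay above both controls and both of colony 2 lay below them. The mean was 1.11-fold the control mean in colony 1 and 0.789-fold in colony 2.

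Of the 10 genes, GPX4 alone differed between the colonies by the limma test without a block, at a log2 difference of -0.49 (SE 0.07, colony 2 minus colony 1, Benjamini-Hochberg adjusted p = 4.4e-05). Of all 13675 genes tested, 2.28% were called in this contrast, 0.629% higher and 1.65% lower in colony 2. Across the alternatives of the processing the difference of GPX4 lay between -0.53 and -0.42. Gene length moved with this contrast, though not in steady order, with a median log2 difference of -0.03 for genes under 1 kb of exonic sequence, -0.09 for 1 to 2 kb, -0.04 for 2 to 4 kb, -0.00 for 4 to 8 kb and 0.06 over 8 kb. GPX4 has 2019 nt of exonic sequence and so falls among the genes of 2 to 4 kb, and with the trend on length removed its difference was -0.42 (adjusted p = 0.000433).

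GSR encodes glutathione reductase, which restores glutathione from its disulfide with NADPH, and lies on chr8:30678061-30727999. It was at 56.8 and 50.04 CPM in control, 73.7 and 59.8 CPM in colony 1 and 70.8 and 67.7 CPM in colony 2. All 4 knockdown libraries lay above both controls, but the lowest of them, in colony 1, was close to the higher control. The log2 change over both colonies was 0.34 (SE 0.09). Without replicate 2 of the control it was 0.25, which no longer reached the threshold used for calls.

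The thioredoxin branch and NQO1 showed no such separation. TXNRD1, the selenoenzyme that reduces thioredoxin, lies on chr12:104215779-104350305 and was at 721 and 661 CPM in control, 703 and 636 CPM in colony 1 and 652 and 610 CPM in colony 2. NQO1, a quinone reductase often read as an NRF2 target, lies on chr16:69706996-69726951 and was at 162 and 143 CPM in control, 174 and 168 CPM in colony 1 and 148 and 156 CPM in colony 2. SRXN1 encodes sulfiredoxin, which repairs overoxidised peroxiredoxins, lies on chr20:646615-653370 and was at 1.40 to 2.21 CPM in all libraries. Control and knockdown libraries overlapped for all 3 genes, with log2 changes over both colonies of -0.09 (SE 0.06) for TXNRD1, 0.08 (SE 0.07) for NQO1 and 0.02 (SE 0.23) for SRXN1.

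SRXN1 rested on 14 to 22 implied reads per library, and 85.0% of its exonic length is shared with AL121758.1 on the same strand, so its low value is uncertain. Of the exonic length of NQO1, 17.7% overlaps the antisense gene AC092115.2. For NQO1 both libraries of colony 1 lay above both controls, at a log2 change of 0.17 for that colony against -0.00 for colony 2. The difference between the colonies was -0.17 for NQO1 and did not pass the limma test (Benjamini-Hochberg adjusted p = 0.307). With the replicate number as a block, GPX4 and NQO1 in colony 1 and TXNRD1 in colony 2 also passed the threshold against control, which is given as a description.

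HMOX1 encodes the inducible haem oxygenase, which opens haem to biliverdin, carbon monoxide and iron, and it lies on chr22:35380361-35394214. Its level was 15.9 and 17.5 CPM in control, 7.64 and 5.66 CPM in colony 1 and 8.80 and 9.51 CPM in colony 2, on 56 to 175 implied reads. All 4 knockdown libraries lay below both controls, and both of colony 2 lay above both of colony 1. The means were 0.398-fold and 0.547-fold the control mean. The log2 change over both colonies was -1.01 (SE 0.15), the 223rd lowest of the 13675 genes tested. Colony 2 differed from colony 1 by 0.42 (SE 0.18), which did not pass the limma test (Benjamini-Hochberg adjusted p = 0.263).

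The ratio of SLC7A11 to HMOX1 was near 1 in control and several-fold higher in both colonies. The level of SLC7A11 was 0.954 ± 0.0561 times that of HMOX1 in control, 9.25 ± 1.87 times in colony 1 and 7.30 ± 0.671 times in colony 2 (ratio of CPM, SD, n = 2 libraries each). GCLM was at 2.90 times the level of HMOX1 in control, 11.7 times in colony 1 and 8.76 times in colony 2. Control and knockdown libraries did not overlap in either ratio, and both libraries of colony 1 lay above both of colony 2.

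**Figure D2:**
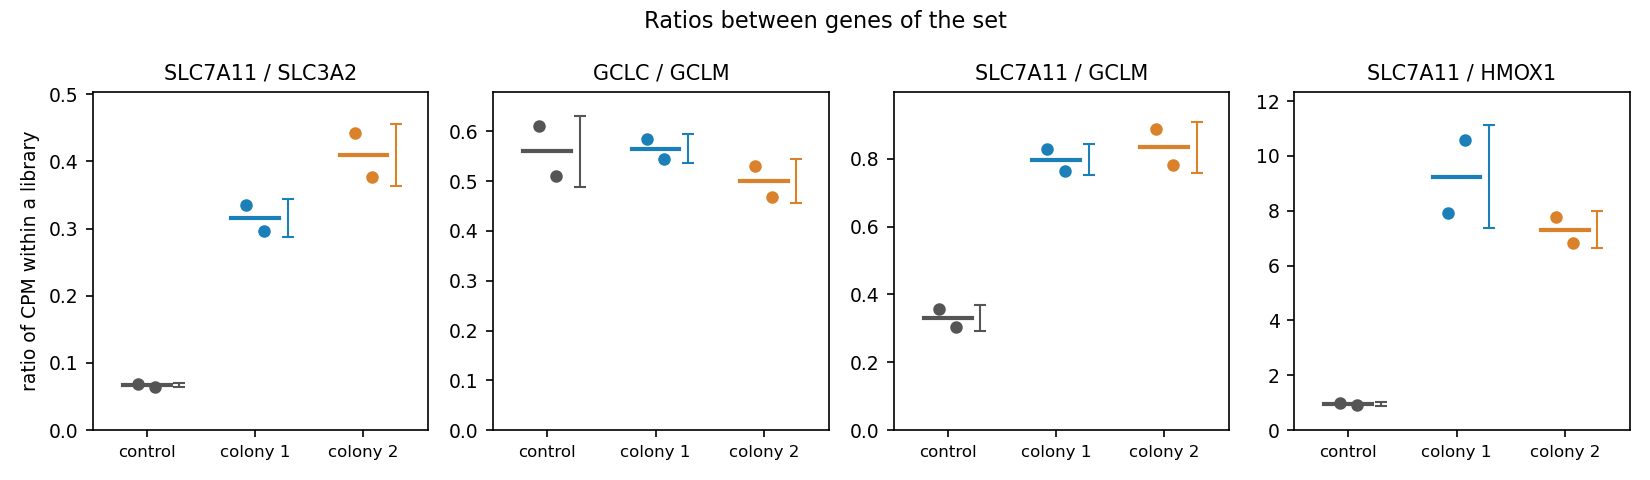
Ratios of CPM between pairs of the genes in each library (points), with group means (horizontal lines) and SD (whiskers), for control, colony 1 and colony 2. The ratio of SLC7A11 to SLC3A2 has a mean of 0.0667 in control, 0.316 in colony 1 and 0.409 in colony 2, while that of GCLC to GCLM overlaps between the groups at 0.560, 0.565 and 0.50.

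Of the 10 genes, all of which passed the filter on low values (a mean of 1 CPM or more), 4 were past the threshold of an adjusted p under 0.05 as higher in both colonies against control and 2 as lower. Over all genes tested, 23.2% were called higher and 21.5% lower, 44.7% together. Nothing is read from the count for the 10 genes, since this contrast was known when they were chosen. The libraries of the same 6 genes did not overlap between knockdown and control, 4 higher and 2 lower, against 53.6% of all genes, 27.8% higher and 25.8% lower. For colony 1 alone, 4 were called higher and 2 lower, beside 39.3% of all genes, 21.1% higher and 18.3% lower. For colony 2, 4 were called higher and 3 lower, beside 40.3% of all genes, 20.5% higher and 19.8% lower. The comparisons of the colonies with control share the same control libraries. The median log2 change of the 10 genes was 0.16 in colony 1 and -0.06 in colony 2, against 0.01 over all genes in both.

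**Figure D3:**
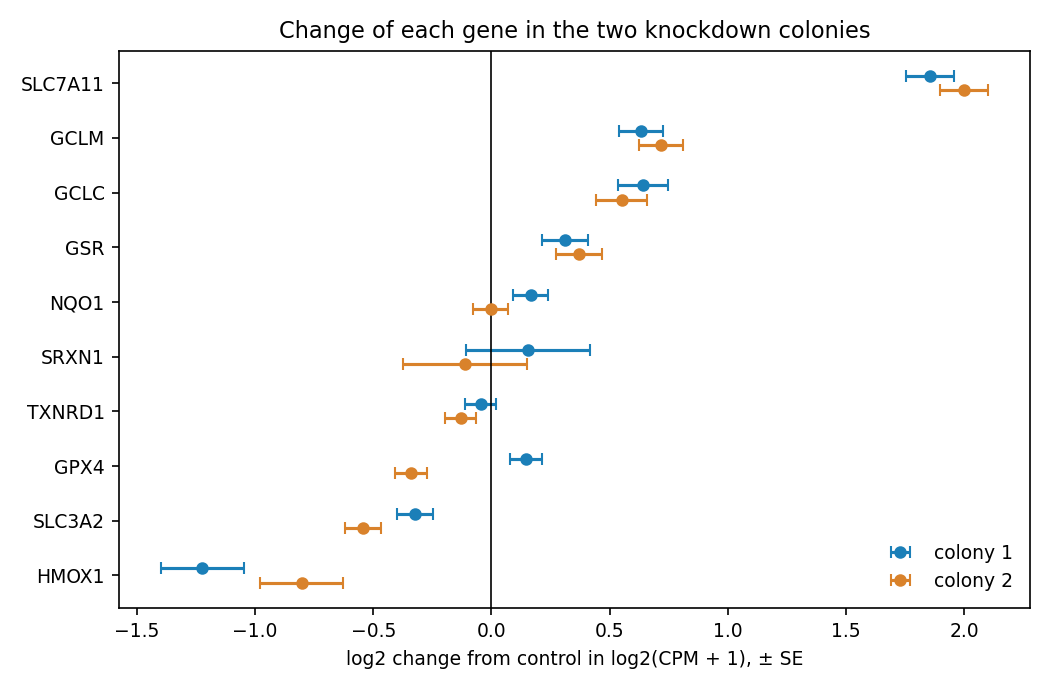
Log2 change on the log2(CPM + 1) scale of each of the 10 genes in colony 1 and colony 2 against control (points, with SE as bars). SLC7A11 is at 1.85 and 2.00, GCLM at 0.63 and 0.72 and GCLC at 0.64 and 0.55, SLC3A2 is at -0.32 and -0.54, and HMOX1 is at -1.22 and -0.80. GPX4 has opposite signs, at 0.15 and -0.34.

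Levels of different genes were compared per kilobase of exonic length. In control the order from high to low was GPX4 at 136 CPM per kb, TXNRD1 at 103, NQO1 at 46.9, SLC3A2 at 46.2, GSR at 14.2, GCLM at 8.97, HMOX1 at 6.95, GCLC at 3.12, SLC7A11 at 1.65 and SRXN1 at 0.657 CPM per kb. NQO1 and SLC3A2 did not differ beyond their spread, with SDs of 4.24 and 2.37 CPM per kb. In colony 2 SLC7A11 was at 6.92 CPM per kb, above GCLC at 4.63 and HMOX1 at 3.81, which were both above it in control.

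The genes whose pattern over the 6 libraries was most like that of SLC7A11 were found by the root mean square difference of log2 changes from the control mean, among 8160 other genes whose mean was 20 CPM or more. They were PRDM8, at 0.0641, followed by TMED5 at 0.150, HS2ST1 at 0.154, STARD3NL at 0.167 and TTPAL at 0.182. PRDM8, a PR domain zinc finger gene, went from a control mean of 16.2 CPM to 63.2 CPM in colony 1 and 69.9 CPM in colony 2. For HMOX1 the nearest of 8161 genes were KAT2B at 0.134, RAPGEF2 at 0.138, SC5D at 0.154, COL17A1 at 0.155 and FBXO21 at 0.168. KAT2B, which encodes a histone acetyltransferase, was at 74.4 CPM in control, 34.2 CPM in colony 1 and 39.8 CPM in colony 2.

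The 3′UTR of SLC7A11 holds 1 copy of the letters GTAAGCA, shown because this 7-base word was singled out in earlier work on these data after values were seen. It lies at position 6746 of 7859 nt in the UTR used.
SLC7A11 site, chr4:138165192-138165221, GRCh38, minus strand, word in capitals: gtctttttattGTAAGCAtatctgaattta
The UTRs of the other 9 genes, which are shorter at 182 to 3785 nt, hold no copy. Of 12315 genes searched, 8.23% carried the word. Carriers had a median log2 change over both colonies of 0.17 and a median UTR of 3265 nt, and the remaining genes had medians of -0.01 and 1258.5 nt. SLC7A11 at 1.93 lay far above the median of carriers, and the part of the word or of UTR length in its level was not tested.

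The wider pathway was described with 12 lists chosen by function, with earlier results of these data known. The lists hold 217 distinct genes, of which 199 were tested. In both colonies against control 50 of them rose and 58 fell, 25.1% and 29.1% of those tested, beside 23.2% and 21.5% of all genes. Values below are log2 changes over both colonies by limma with Benjamini-Hochberg adjustment over all genes. They stand beside a median of 0.01 for all genes. Because of how the lists were chosen, their adjusted p-values against control are a description and no independent test.

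Among the other light chains that SLC3A2 carries, 2 of the 3 tested fell and none rose, with a median of -0.50. SLC7A5, the leucine and large neutral amino acid exchanger LAT1, was at 584 ± 2.85 CPM in control, 405 ± 54.4 CPM in colony 1 and 422 ± 28.9 CPM in colony 2, a log2 change of -0.50 (SE 0.06, adjusted p = 8.7e-07). SLC7A7, a cationic amino acid exchanger, had a mean of 5.96 CPM in control and fell by 0.58. Its call was lost without control replicate 2, at -0.44, and without replicate 1 of colony 1, at -0.48. SLC7A6, a related exchanger named after its values were seen, lay between 86.6 and 89.4 CPM in all libraries. Of its exonic length, 44.4% overlaps SLC7A6OS on the other strand, so its reads may be mixed with those of that gene. SLC7A11 was thus higher in the libraries in which its heavy chain was lower and SLC7A5 and SLC7A7 fell.

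Of 12 tested genes that supply cystine, cysteine and methionine, 4 rose and 2 fell, with a median of 0.10. MTRR, which reactivates methionine synthase, rose by 1.02 from 27.9 ± 2.74 CPM in control to 55.7 ± 1.82 and 59.6 ± 4.35 CPM in the colonies. GOT1, the cytosolic aspartate aminotransferase, rose by 0.48, and 19.3% of its exonic length overlaps AL391684.1 on the other strand. MTR, methionine synthase itself, fell by 0.41, and AHCY, which splits S-adenosylhomocysteine, fell by 0.27. The pair that remakes methionine thus moved in opposite directions.

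In the list of glutathione synthesis, breakdown and transport, 3 of 16 tested genes rose and 3 fell, with a median of 0.04. GSS, which completes glutathione from the product of glutamate-cysteine ligase, was at 137 ± 7.34 CPM in control, 111 ± 2.21 CPM in colony 1 and 115 ± 3.50 CPM in colony 2, a log2 change of -0.27 (SE 0.07, limma adjusted p = 0.0011). The first step of synthesis was thus higher in transcript level and the second fell. ABCC1, an exporter of glutathione and its conjugates, fell by 0.45, from 119 ± 4.51 CPM to 90.1 ± 2.50 and 83.1 ± 3.42 CPM. ABCC4, another exporter of the same family, rose by 0.96, from 26.7 ± 1.90 CPM to 50.1 ± 1.51 and 56.0 ± 2.31 CPM. SLC25A40, which with its paralogue imports glutathione into mitochondria, rose by 0.30, a call lost without control replicate 1, without replicate 1 of colony 1 and without replicate 2 of colony 2, at 0.17, 0.26 and 0.25. The call was also lost with no filter on low values and with each library centred on its median.

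Of 29 tested peroxidases, thioredoxins and glutaredoxins 6 rose and 10 fell, with a median of -0.15. PRDX3, the mitochondrial peroxiredoxin, was at 174 ± 3.2 CPM in control, 335 ± 1.78 CPM in colony 1 and 283 ± 1.51 CPM in colony 2, a log2 change of 0.82 (SE 0.06, limma adjusted p = 7.5e-12). The peroxiredoxins PRDX1, PRDX4, PRDX5 and PRDX6 fell, at -0.35, -0.30, -0.38 and -0.44. PRDX2, the remaining peroxiredoxin of the list, was tested and not called. Of the exonic length of PRDX1, 24.9% overlaps MMACHC on the other strand. MSRA, which reduces methionine sulfoxide, rose by 0.82 from 9.0 CPM. GPX8, a peroxidase of the endoplasmic reticulum, fell by 0.59, and SESN1, a sestrin, fell by 0.61, a call that was lost without control replicate 2, at -0.57.

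Of 15 tested glutathione transferases, 1 rose and 3 fell, with a median of -0.10. GSTA4, which conjugates the lipid peroxidation product 4-hydroxynonenal, fell by 0.86, from 13.6 ± 2.31 CPM to 7.41 ± 0.475 and 6.61 ± 0.330 CPM. GSTK1 fell by 0.32. GSTM4 rose by 0.27, a call lost without control replicate 2, at 0.15, and its reads may be split with near-identical GSTM genes. The call was also lost with each library centred on its median, at 0.22.

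Genes of NADPH supply, the reductant that GSR and TXNRD1 use, rose in 8 of 18 cases and fell in 2, with a median of 0.10. MTHFD1L and MTHFD1, enzymes of folate one-carbon metabolism, rose by 0.51 and 0.41, MTHFD1 from 115 ± 8.27 CPM to 160 ± 7.35 and 146 ± 3.76 CPM. ALDH1L1, another folate enzyme, fell by 0.77 from 5.0 CPM, and NADK2, the mitochondrial NAD kinase, fell by 0.26. Without control replicate 2, 5 genes of this list rose and 1 fell, and the call of NADK2 was lost, at -0.20.

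Among 23 other NRF2 targets 7 rose and 9 fell, with a median of 0.08. AKR1B1, an aldose reductase, was at 392 ± 21.7 CPM in control, 235 ± 5.52 CPM in colony 1 and 201 ± 17.1 CPM in colony 2, a log2 change of -0.84 (SE 0.06, limma adjusted p = 2.0e-11). ABHD4, a lipid hydrolase, fell by 0.87. TRIM16L, whose reads may be shared with TRIM16, rose by 0.62, and PIR, pirin, rose by 0.63 from 3.49 CPM. Without control replicate 2 the call of PIR was lost, at 0.54, and 3 genes of the list rose and 6 fell.

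Of 17 NRF2 regulators and partners 5 rose and 3 fell, with a median of -0.09. SQSTM1, the autophagy receptor that binds KEAP1 and is also an NRF2 target, rose by 0.52, from 315 ± 22.1 CPM to 450 ± 8.47 and 456 ± 18.7 CPM, and PGAM5, a mitochondrial phosphatase that binds KEAP1, rose by 0.51. Of the exonic length of SQSTM1, 20.7% overlaps MRNIP on the other strand. MAFF and GSK3B each fell by 0.23. MAFF lost its call without control replicate 2, at -0.10, without replicate 1 of colony 1, at -0.20, and without either library of colony 2, at -0.22 and -0.24. The call of MAFF was also lost with no filter on low values, with the 4 knockdown libraries as 1 group and with the trend on length removed. GSK3B lost its call without either control, at -0.25 and -0.21, and without replicate 2 of colony 1 or replicate 1 of colony 2, both at -0.21. Without control replicate 2 there were 3 calls in this list, all higher, and without replicate 1 of colony 2 there were 4 higher and 1 lower.

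The central genes of NRF2 control, picked for their role after their values were seen, lay close to their control levels. NFE2L2, which encodes NRF2, was at 98.7 and 98.7 CPM in control, 102 and 95.1 CPM in colony 1 and 102 and 98.6 CPM in colony 2, a log2 change of 0.01 (SE 0.07, limma adjusted p = 0.940). Of the exonic length of NFE2L2, 17.6% is shared with AC019080.1 on the same strand. KEAP1 rose by 0.19 (SE 0.07, limma adjusted p = 0.0209), from 95.7 and 90.4 CPM in control to 108 and 111 CPM in colony 1 and 106 and 101 CPM in colony 2. BACH1, the repressor of HMOX1, fell by 0.21 (SE 0.08, limma adjusted p = 0.0332), from 59.1 and 57.8 CPM in control to 49.8 and 48.0 CPM in colony 1 and 53.3 and 50.6 CPM in colony 2. The call of KEAP1 was lost without control replicate 2, at 0.15, replicate 2 of colony 1, at 0.18, or replicate 1 of colony 2, at 0.17. That of BACH1 was lost without either control, at -0.19 and -0.23, or replicate 2 of either colony, at -0.20 and -0.19. KEAP1 also lost its call with each library centred on its median. BACH1 also lost its call with no filter on low values or with the 4 knockdown libraries as 1 group. Transcript levels do not show the amount or activity of these proteins, which are controlled by degradation.

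In the list of haem and iron handling 8 of 24 tested genes rose and 8 fell, with a median of -0.03. FECH, which inserts iron into protoporphyrin, was at 12.02 ± 1.54 CPM in control, 28.6 ± 1.41 CPM in colony 1 and 24.5 ± 1.64 CPM in colony 2, a log2 change of 1.08 (SE 0.12, limma adjusted p = 2.9e-08). FLVCR1, long described as a haem exporter, rose by 0.74. UROD and CPOX, the enzymes of earlier steps of haem synthesis, fell by 0.43 and 0.42. HMOX1, which breaks haem down, was lower in the same libraries.

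Of 20 tested ferroptosis factors 3 rose and 10 fell, with a median of -0.36. TFRC, the transferrin receptor, which also stands in the iron list, rose by 0.69, from 153 ± 12.6 CPM to 258 ± 2.46 and 239 ± 5.36 CPM. DHODH, a mitochondrial enzyme of pyrimidine synthesis, rose by 0.54. GCH1, which starts the synthesis of the radical-trapping tetrahydrobiopterin, fell by 0.80, from 6.16 CPM to 3.18 and 3.05 CPM. ALOX5, a lipoxygenase, fell by 0.69, a call lost without control replicate 1, at -0.59. The list mixes genes known to protect from lipid peroxidation with genes known to drive it.

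Of 11 regulators of SLC7A11, 4 rose and 4 fell, with a median of 0.09. CD44, whose splice variant steadies SLC7A11 at the membrane, rose by 0.74, from 593 ± 12.6 CPM to 943 ± 5.54 and 1045 ± 6.96 CPM. ATF4 rose by 0.29 (SE 0.06, limma adjusted p = 0.000375), from 134 and 131 CPM in control to 162 and 161 CPM in colony 1 and 159 and 167 CPM in colony 2, and it was picked for its role after its values were seen. BAP1, another regulator in this list, rose more than ATF4, by 0.36 (limma adjusted p = 1.7e-05). Its call held in all 15 alternatives of the processing. DDIT3, a target of ATF4, rose by 0.42, a call lost without control replicate 2, at 0.36, and 27.2% of its exonic length overlaps MARS on the other strand. ATF3 fell by 0.88, and MUC1, a mucin, fell by 1.14. CHAC1, a glutathione-degrading target of ATF4 picked in the same way, was at 1.08 to 3.50 CPM in all libraries and did not pass the test.

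Of 24 tested selenoproteins and genes of the selenocysteine machinery, which GPX4 and TXNRD1 need, 5 rose and 5 fell, with a median of -0.04. SEPHS1 and SEPHS2, of the selenophosphate synthetase family, rose by 0.48 and 0.39, SEPHS1 from 69.9 ± 8.07 CPM to 102 ± 5.53 and 92.8 ± 0.231 CPM. SELENOW and SELENON fell by 0.47 and 0.37.

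**Figure D4:**
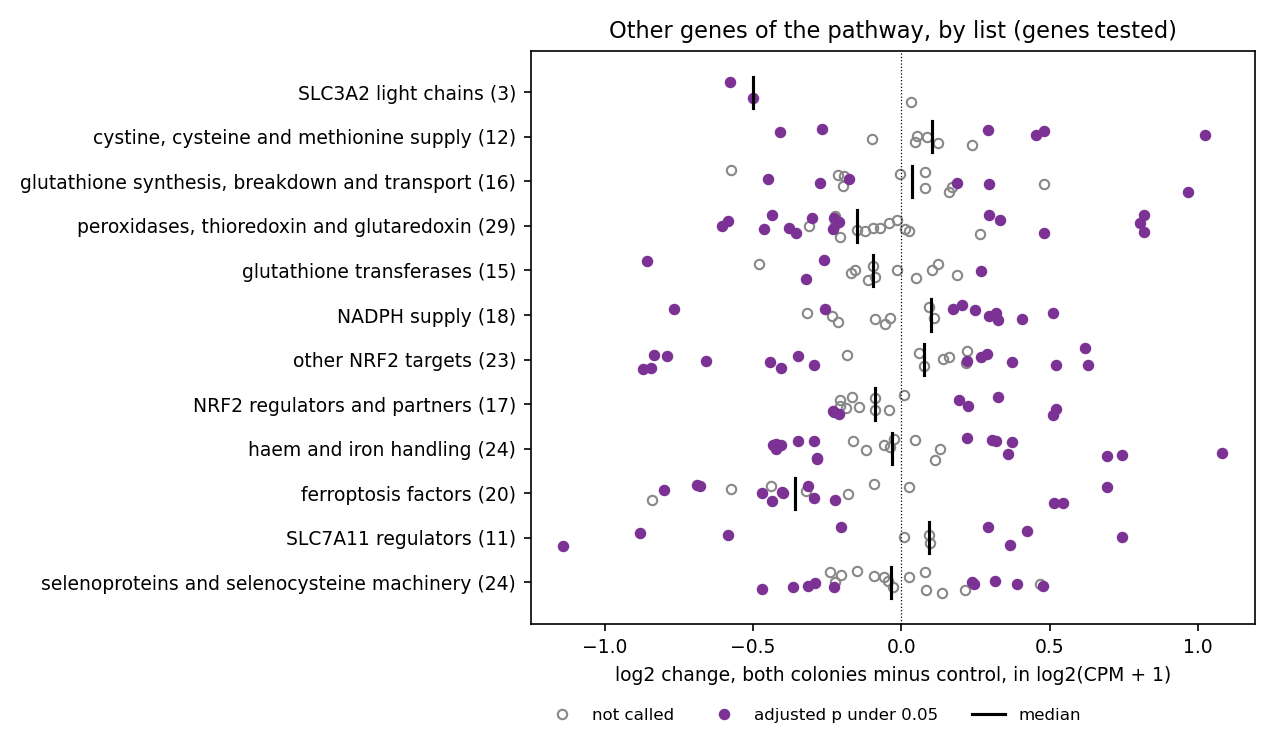
Log2 change over both colonies against control (horizontal axis) of every tested gene in the 12 lists (rows). Each point is a gene, filled where it was called, and the tick marks the list's median, which runs from -0.50 in SLC3A2 light chains to 0.10 in NADPH supply and in cystine, cysteine and methionine supply.

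Of the 199 tested list genes 4 were called in colony 2 against colony 1, all lower in colony 2, a share of 2.01% beside 2.28% of all genes. With the replicate number as a block, 18 list genes were called, 1 higher and 17 lower, a share of 9.05% beside 7.58% of all genes. Both shares lie near those of all genes. The 4 genes called without the block were PRDX3 and PRDX4 among the peroxiredoxins, RBX1, a subunit of the ubiquitin ligase that acts on NRF2, and SELENOF, a selenoprotein of the endoplasmic reticulum. PRDX3 was at 336 and 333 CPM in colony 1 and 284 and 282 CPM in colony 2, a log2 difference of -0.24 (limma adjusted p = 0.0458). Without any 1 of the 4 knockdown libraries PRDX3 and PRDX4 lost their calls, at differences of -0.25 to -0.24 and -0.31 to -0.27, close to their values with all libraries. Both also lost them with no filter on low values and with the trend on length removed, at -0.21 and -0.22 in the latter, and PRDX3 with median centring and median-of-ratios scaling. GPX4 kept its call under each of these.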

How the data were processed

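Gene expression was measured by RNA-seq in 6 libraries of MDA-MB-231 cells, 2 each of control, colony 1 and colony 2 with DDX18 knocked down. Per the labels' protocols, RNA treated with DNase went into an mRNA library kit with random priming. The deposited values were CPM, computed by the authors from read counts per gene. Trim Galore and HISAT2 and the builds hg38 and mm10 are named, per the submitters' processing notes. Not given in the sources used here are the counting program, its annotation, its use of strand and its scaling.

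Of 52142 rows, 15200 carried no symbol, with 2.50% to 2.62% of a library's CPM, and 10 shared a symbol, which left 36932. The values summed to 956008 to 984969 CPM over all 52142 rows. The design assumed CPM or read counts, and the branch for CPM was used. The 13675 genes whose mean reached 1 CPM were fitted as log2(CPM + 1) with limma-trend, robust, over all 3 groups at once and without covariates (limma 3.58.1, statmod 1.5.0, R 4.3.3). Tests were two-sided, p-values were adjusted by Benjamini-Hochberg, and calls lay under 0.05. The fit was first tested on simulated data, drawn independently for each library and with no trend on length. That test therefore does not cover the length trend or replicates that deviate together. With 2 libraries a group, precision is limited by the spread between libraries, and for genes with few implied reads by counting.

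The members and lists were chosen with earlier results of these data known. The text names the 10 genes, DDX18, up to 2 called genes in each direction of each list, the 5 genes most like SLC7A11 and most like HMOX1, and the list genes called between the colonies. Outside this rule, SLC7A6, NFE2L2, KEAP1, BACH1, ATF4, CHAC1 and SLC7A11-AS1 were named for their role after their values were seen. BAP1 was named beside ATF4, also after its values were seen. PRDX1, PRDX5 and PRDX6 were named after their values were seen, since they moved against PRDX3, and PRDX2 as the remaining peroxiredoxin of the list. Same-numbered replicates deviated together, with correlations of 0.119, 0.128 and 0.159 between the groups. The main fit did not pair the libraries, and the replicate number entered only as a block in an alternative fit. The labels give no shared culture or day. Positions and UTRs came from GENCODE 29 on GRCh38 and promoters from RefSeq on GRCh38.p14. Python 3.11.15 was used for the rest. Other pseudocounts, filters, scalings, a replicate block, pooled knockdown groups, a removed length trend and leaving out each library were tried as alternatives.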

Additional observations from a re-analysis of the deposited data

Results flagged for a closer look

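Colony 2 differed from colony 1 by limma with Benjamini-Hochberg adjustment in 5 of the genes described, the 10 chosen genes and the lists together. The difference is that of the changes of the colonies from control, which share the control libraries. For GPX4, whose libraries lie above control in colony 1 and below it in colony 2, the difference was -0.49 on the log2 scale (SE 0.07, adjusted p = 4.4e-05). For PRDX3, which rose in both colonies against control, it was -0.24 (adjusted p = 0.0458). For PRDX4 it was -0.29 (adjusted p = 0.0349), from 112 and 114 CPM in colony 1 to 92.9 and 91.7 CPM in colony 2. RBX1 differed by -1.05 (adjusted p = 0.0174), from 4.94 ± 1.41 CPM in colony 1 to 1.86 ± 0.485 CPM in colony 2 (SD, n = 2 libraries each), a weakly expressed gene whose call was lost without replicate 1 of colony 1 or replicate 2 of colony 2. SELENOF differed by -0.30 (adjusted p = 0.0406), from 209 ± 1.19 CPM to 169 ± 12.8 CPM, a call lost in 6 of 14 alternatives. No explanation of these differences was tested.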

How the results depend on the processing

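Over 15 alternatives, 542 of 566 values of the 10 genes kept their direction and their side of the threshold, 4 dropped below it, 8 came past it and 12 changed sign, none of them called in either fit. The sign changes were in SRXN1, NQO1, TXNRD1 and GSR. SRXN1 over both colonies was -0.0257 with median centring and -0.00725 with the length trend removed. Leaving out 1 library gave -0.17 to 0.22 for SRXN1 over both colonies, -0.0386 to 0.35 in colony 1 and -0.31 to 0.0827 in colony 2. It gave -0.0105 to 0.17 for NQO1 over both colonies and -0.0951 to 0.0883 in colony 2, -0.12 to 0.0261 for TXNRD1 in colony 1 and -0.0894 to 0.21 for GSR between the colonies. For DDX18 between the colonies it gave -0.23 to 0.080. The change of SLC7A11 over both colonies lay between 1.88 and 1.99, that of HMOX1 between -1.11 and -0.92 and the difference of GPX4 between the colonies between -0.53 and -0.42. GSR dropped below the threshold without control replicate 2 in each comparison with control, at 0.25 over both colonies, 0.22 in colony 1 and 0.28 in colony 2, and without replicate 1 of colony 1 in that colony, at 0.16. With each library centred on its median, which shifted the median of all genes by -0.05, GPX4 (-0.15) and TXNRD1 (-0.14) passed it over both colonies and TXNRD1 in colony 2 (-0.17). NQO1 passed it in colony 1 without control replicate 1, at 0.26.

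The count of genes called between the colonies, 312, was 1036 with the replicate block (361 higher and 675 lower) and 206 with the length trend removed (56 higher and 150 lower). Leaving out 1 library gave 137 to 452 calls, with 137 without replicate 1 of colony 2, 168 without replicate 2 of colony 2 and 170 without replicate 2 of colony 1. The counts against control stayed within 1.5 times, from 4751 to 5959 over both colonies, 3952 to 5321 for colony 1 and 3912 to 5619 for colony 2. Among the 10 genes the block changed the calls of SLC3A2, GPX4, NQO1 and TXNRD1 given above and no other. The median-of-ratios scaling and the removal of the length trend were chosen after seeing the data. Planned tests on read counts and trimmed-mean scaling were not run, although every value was a whole multiple of its column's smallest step, so the calls rest on limma alone. Under the filter of 10 CPM, SRXN1 gave no value. At 8843847 to 11902437 implied reads, SRXN1 and other genes of a few CPM rest on few reads, and a difference there may not be detectable at this depth. The cause of these moves was not tested.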
